A study of Mus musculus with 4 samples.

Results

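The intraflagellar transport B1 core subunits, the inner part of the protein train that carries building material into cilia, were followed as 9 genes of the 18471 in a retinal expression table. The members were taken by name from the symbol column: Ift25 (also called Hspb11), Ift46, Ift52, Ift56 (also called Ttc26), Ift70a1, Ift70b, Ift74, Ift81 and Ift88. All 9 were present and all 9 passed the filter on low counts, which left 17300 genes. RNA was taken from retinas of single mouse embryos at embryonic day 19, with 2 libraries labelled wild-type and 2 labelled Foxn3KO. The Foxn3KO embryos have the genotype Foxn3-/- and are given as C57BL/6NJ-Foxn3em1(IMPC)Bay/Mmnc. In this line exon 3 of Foxn3, a gene for a forkhead transcription factor, is deleted. No further allele or treatment is given for either group. Whole retina was sampled, so a change in the proportion of a cell type and a change of RNA per cell cannot be told apart in any value below.

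Intraflagellar transport moves particles along the microtubules of the cilium. The trains are built of complexes A and B. Kinesin-2 motors carry them to the tip, and dynein-2 drives the return. Complex B is built from a B1 core and a B2 peripheral part. In the retina this transport serves the primary cilia of progenitors and, later, the connecting cilium through which photoreceptors supply their outer segments.

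The libraries were checked first. Total counts ranged from 22543531 to 29360129, and 3 counts corresponded to 0.103 to 0.134 CPM (counts scaled to a common library size, with TMM factors for composition). Foxn3 itself was higher in the libraries labelled Foxn3KO, at 144 and 144 CPM against 97.6 and 99.8 CPM (log2 fold change 0.54, SE 0.046, edgeR adjusted p = 7.83e-08). Counts per gene do not resolve exon 3, so directions below rest on the labels, and wild-type and Foxn3KO mean the libraries labelled so. Wild-type replicate 1 stood apart in sex-linked transcripts, with 83073 Xist counts and 0 Ddx3y counts against 9 to 19 and 1780 to 2317 in the other libraries. Fold changes for the members, the summed Ift70 copies and the other transport genes are therefore also given without that library. All 16 retinal marker genes were present, at a summed level of 3972 to 4167 CPM, with 3 called higher and 2 lower. Lens markers moved with the labels: 8 of 9 measured were called higher by edgeR (3 by DESeq2), and their sum was 5.44 and 63.7 CPM in the wild-type libraries against 249 and 247 CPM in those labelled Foxn3KO. Among these, Crygs was at 0 counts in wild-type replicate 1, and Lim2 and Foxe3 were not analysed here. Pigment epithelium markers went the other way, with 4 of 8 called lower and sums of 89.3 and 118 CPM against 72.6 and 73.7 CPM. Of choroid plexus markers, 2 of 7 tested were called higher and 2 lower, and the 7 measured apart from Otx2, which the retina also expresses, summed to 17.1 and 20.8 CPM against 18.2 and 18.9 CPM. Folr1 (log2 fold change 1.94) and Clic6 (-1.53) went opposite ways. Of airway epithelium markers, 3 of 10 were measured and 1, Cdh1, was called higher, at 1.53 and 2.25 CPM against 7.90 and 10.1 CPM. The sum of Krt8 and Epcam was 6.41 and 6.44 CPM against 5.56 and 5.13 CPM, and neither was called. Vessel and mesenchyme markers had 1 of 7 called by edgeR and 0 by DESeq2, with sums of 386 to 410 CPM. Most of these sums was Kdr, at 347 to 373 CPM, so they say little about the other markers. The called marker was Pecam1, at 0.887 and 0.994 CPM against 1.79 and 2.23 CPM (edgeR adjusted p = 0.0151). Of blood and microglia markers 0 of 8 were called by edgeR and 0 by DESeq2 (1 at an unadjusted p under 0.05), with sums of 41.2 and 88.6 CPM against 63.5 and 67.9 CPM. The part of lens and pigment epithelium tissue in the member values was not tested. As these markers moved with the labels, that part cannot be told apart from genotype. The 9 members summed to 364 and 362 CPM in the wild-type libraries and to 576 and 566 CPM in the libraries labelled Foxn3KO.

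Sequence just before and around the start of the member genes is shown because ciliary genes are known targets of RFX transcription factors, whose half-site reads GTTGCC or GTTGCT. RefSeq promoter entries (build GRCm38.p6, 250 bases before the start and 50 from it on) were found for 7 of the 9 members, and none for Ift70b and Ift81. On either strand, 5 of these 7 hold at least 1 half-site, against 25.1% of 32851 promoters of the same length. The motifs were chosen with the promoter sequences in view, so enrichment was not tested. The stretches below run 5′ to 3′ on the gene's strand, with the half-site or its reverse complement in capitals.
Ift56, chr6:38381479-38381508, plus strand: cctcccggcggcGTTGCCgtggaaacggag
Ift74, chr4:94614474-94614503, plus strand: cgcgcggtgaccGTTGCTaggatacgcggc
Ift88, chr14:57424080-57424109, plus strand: ggagtcgcgcctGGCAACggctgggcgtcc
Ift70a1, chr2:75982170-75982199, minus strand: agctagaaaacaAGCAACgctcactcgttc
Ift52, chr2:163017269-163017298, plus strand: tctttaatagcaGTTGCTagcaaatgaaca
The capitals begin at position -33 from the start in Ift56, -5 in Ift74, 22 in Ift88, -220 in Ift70a1 and -72 in Ift52. Ift56 has a further half-site at position 2. The windows of Ift25 and Ift46 do not hold these letters. The forkhead motif GTAAACA was in 0 of the 7 windows and in 3.65% of all promoters. The alternative forkhead motif GACGC was in 4 of the 7, those of Ift46, Ift52, Ift74 and Ift88, and in 27.2% of all promoters. A match describes letters in the window and does not show binding.

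In the retinas labelled Foxn3KO, 6 of the 9 members were higher than in wild-type, 1 was lower at the edge of the threshold and 2 did not pass. The 6 that rose were Ift70b, Ift56, Ift88, Ift81, Ift74 and Ift70a1, by 3.04-fold to 1.38-fold. Ift25 was the member with the lower value, and Ift46 and Ift52 did not pass. A gene was called when its adjusted p, from edgeR's quasi-likelihood test and adjusted over all 17300 genes by the Benjamini-Hochberg method, was under 0.05. Of all tested genes, 21.9% were called, 12.3% as higher and 9.66% as lower. Among genes averaging 10 CPM or more, 15.3% were called higher. The median log2 fold change of the 9 members was 0.76, beside -0.0047 over all tested genes. Without wild-type replicate 1 the median was 0.79, with 6 members called, all higher, and 24.3% of all genes called. In 7 members both Foxn3KO libraries lay above both wild-type libraries and in 1, Ift25, below; this was so for 29.9% and 30.5% of all tested genes.

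**Figure D1:**
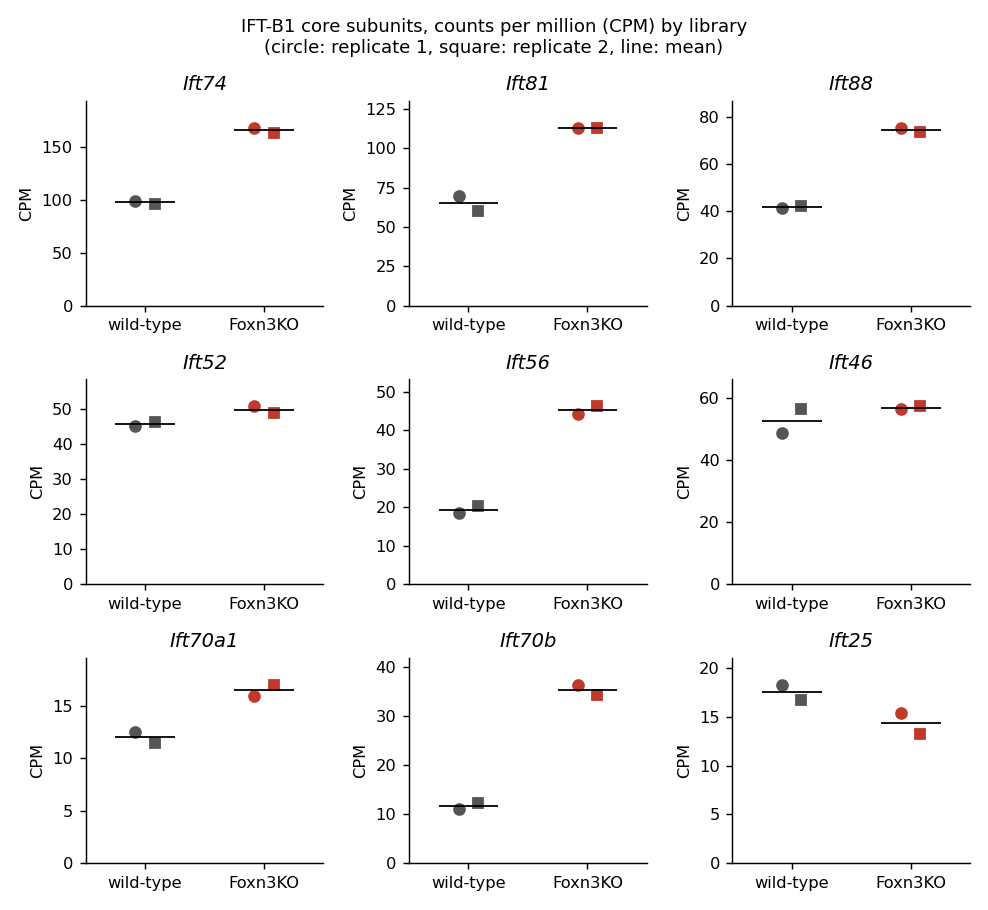
Level of each of the 9 members in the 4 libraries, in CPM on a linear axis from 0. Circles are replicate 1, squares replicate 2 and lines the group means; Ift46 is the member whose groups overlap, and Ift25 is the member whose libraries labelled Foxn3KO lie lower.

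Ift74 and Ift81 form a coiled-coil pair that binds tubulin, the main cargo of the growing cilium. Ift74 measured 99.0 and 95.7 CPM in the wild-type libraries and 168 and 163 CPM in those labelled Foxn3KO. The groups stood well apart, with a log2 fold change of 0.76 (SE 0.047, 95% interval 0.67 to 0.86, edgeR adjusted p = 8.19e-10) and 0.79 without wild-type replicate 1. Ift81 measured 69.6 and 60.4 CPM against 113 and 113 CPM. Its wild-type libraries were more spread than the others and lay far below them (log2 fold change 0.80, SE 0.060, edgeR adjusted p = 1.51e-08; 0.90 without wild-type replicate 1). The intervals of the 2 fold changes overlapped. The log2 ratio of Ift81 to Ift74 counts was -0.51 and -0.66 in wild-type and -0.57 and -0.52 in Foxn3KO, overlapping between the groups, and its mean differed by 0.04 (exact permutation test over samples, two-sided, p = 1).

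Ift88, known as polaris, is a tetratricopeptide-repeat subunit whose partial loss in mice impairs cilia in kidney and retina. It measured 41.5 and 42.1 CPM in wild-type and 75.3 and 73.5 CPM in Foxn3KO. Both groups were tight, and the log2 fold change was 0.83 (SE 0.055, 95% interval 0.72 to 0.95, edgeR adjusted p = 2.56e-09; 0.82 without wild-type replicate 1). An antisense gene, Ift88os, shares 67 exonic bases with Ift88 on the opposite strand in GENCODE M21, and the use of strand in counting is not given in the sources used here. No other member shared exonic bases with another gene in that annotation.

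Ift52, which binds Ift88 and Ift70 in the centre of the B1 core, behaved otherwise. It measured 45.2 and 46.3 CPM in wild-type and 50.8 and 48.8 CPM in Foxn3KO. The groups did not overlap but lay close together, and the log2 fold change of 0.12 (SE 0.059, 95% interval -0.0018 to 0.25) did not pass (edgeR adjusted p = 0.155; log2 fold change 0.11 without wild-type replicate 1). The interval excludes a rise as large as that of Ift88. Within a library, the log2 ratio of Ift52 to Ift88 counts was 0.12 and 0.14 in wild-type and -0.57 and -0.59 in Foxn3KO, a difference of -0.71 (exact permutation test, two-sided, p = 0.333). With 2 libraries in each group, 0.333 is the smallest p this test can give, and over the 5 ratios computed its Benjamini-Hochberg adjusted value was 0.416.

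Ift46 and Ift56 lie next to each other in the core, where Ift56 is known for the delivery of proteins of the motile axoneme. Ift56 measured 18.5 and 20.2 CPM in wild-type and 44.3 and 46.3 CPM in Foxn3KO. It rose 2.33-fold, with no overlap of the groups (log2 fold change 1.22, SE 0.072, 95% interval 1.07 to 1.37, edgeR adjusted p = 4.71e-10; 1.16 without wild-type replicate 1). Ift46 measured 48.9 and 56.7 CPM in wild-type and 56.6 and 57.5 CPM in Foxn3KO. Wild-type replicate 2 lay among the Foxn3KO libraries, and the log2 fold change of 0.11 (SE 0.066, edgeR adjusted p = 0.263) was 0.01 without wild-type replicate 1 and was 0.22, past the threshold, without wild-type replicate 2. The log2 ratio of Ift46 to Ift56 counts was 1.40 and 1.49 in wild-type and 0.35 and 0.31 in Foxn3KO, a difference of -1.11 (exact permutation test, two-sided, p = 0.333; adjusted over 5 ratios 0.416).

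Ift25 pairs with the small GTPase Ift27; in mice the pair is needed for Hedgehog signalling more than for building the cilium. Ift25 measured 18.3 and 16.7 CPM in wild-type and 15.4 and 13.3 CPM in Foxn3KO. The groups did not overlap, but the gap between them was smaller than the gap within either group. Its log2 fold change was -0.29 (SE 0.0995, 95% interval -0.50 to -0.08), with an edgeR adjusted p of 0.0484. This call was lost in DESeq2 (adjusted p = 0.190), where 14.1% of genes were called, and in limma-voom (adjusted p = 0.0573), where 21.9% were. The log2 fold change shrank to -0.21 without wild-type replicate 1 and to -0.19 without Foxn3KO replicate 2. It was larger, at -0.34, without wild-type replicate 2 and at -0.40 without Foxn3KO replicate 1. In the authors' deposited table, Ift25 had an adjusted p of 0.193. Its partner Ift27, which is not among the 9, measured 35.2 and 37.4 CPM in wild-type and 59.8 and 58.5 CPM in Foxn3KO (log2 fold change 0.71, edgeR adjusted p = 8.34e-08; 0.66 without wild-type replicate 1). The log2 ratio of Ift25 to Ift27 counts was -0.94 and -1.16 in wild-type and -1.96 and -2.14 in Foxn3KO, a difference of -0.9996 (exact permutation test, two-sided, p = 0.333; adjusted over 5 ratios 0.416).

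Ift70 is a tetratricopeptide-repeat subunit that wraps around Ift52. In the mouse it is encoded by intronless genes that lie near each other on chromosome 2, among them Ift70a1 and Ift70b; another copy, Ift70a2, was not analysed here. In GENCODE M21 the coding sequences of Ift70a1 and Ift70b are both 1992 bases long and 94.88% identical, with 102 mismatched bases and 0 gaps. The stretch with the most differences, coding bases 1165 to 1224, shows how reads can tell the genes apart, with the 16 differing bases in capitals.
Ift70a1: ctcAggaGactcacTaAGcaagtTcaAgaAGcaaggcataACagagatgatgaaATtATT
Ift70b: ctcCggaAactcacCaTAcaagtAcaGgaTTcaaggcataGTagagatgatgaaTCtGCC
Elsewhere the transcripts are identical over longer runs. Of all stretches of 100 bases, 7.68% of those in Ift70a1 also occur in Ift70b and 10.5% of those in Ift70b in Ift70a1; for stretches of 50 bases the shares are 18.9% and 25.8%. Ift70a2 shares 19.3% of the 100-base stretches of Ift70a1 and 16.6% of those of Ift70b. How the counting treated reads that fit more than 1 copy is not given in the sources used here, so the split between copies is uncertain.

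The 2 measured copies moved by different amounts. Ift70b had 271 and 335 counts in wild-type and 1061 and 767 in Foxn3KO, or 10.9 and 12.3 CPM against 36.4 and 34.2 CPM. This was the largest fold change among the 9 (log2 fold change 1.60, SE 0.085, 95% interval 1.42 to 1.78, edgeR adjusted p = 1.18e-10; 1.53 without wild-type replicate 1). Ift70a1 had 311 and 312 counts in wild-type and 466 and 382 in Foxn3KO, or 12.5 and 11.5 CPM against 16.0 and 17.1 CPM. It also rose without overlap, by 0.46 on the log2 scale (SE 0.099, 95% interval 0.25 to 0.67, edgeR adjusted p = 0.00254; 0.52 without wild-type replicate 1). The 95% intervals of the 2 fold changes do not overlap.

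Because both genes were read in the same libraries, the share of Ift70b among their joint counts does not depend on library scaling. It was 46.6% of 582 counts (95% Wilson interval 42.5 to 50.6) in wild-type replicate 1 and 51.8% of 647 (47.9 to 55.6) in wild-type replicate 2. In Foxn3KO it was 69.5% of 1527 (67.1 to 71.7) and 66.8% of 1149 (64.0 to 69.4); these intervals cover counting error only. The wild-type libraries thus lay near equal counts of both copies, and each Foxn3KO library lay above both. Counts are not scaled for the different lengths of the transcripts. On the FPKM scale, the share of Ift70b was 54.2% and 59.3% in wild-type and 75.6% and 73.2% in Foxn3KO. The mean log2 ratio of Ift70b to Ift70a1 was -0.05 ± 0.21 (SD, n = 2) in wild-type and 1.10 ± 0.13 (SD, n = 2) in Foxn3KO, a difference of 1.14 (exact permutation test, two-sided, p = 0.333, the smallest this design allows; adjusted over 5 ratios 0.416). Summed to 1 family count, the copies measured 23.6 ± 0.243 CPM in wild-type and 51.9 ± 0.802 CPM in Foxn3KO (SD, n = 2), and the family rose by 1.13 on the log2 scale (SE 0.064, edgeR adjusted p = 2.76e-10), and by 1.13 without wild-type replicate 1.

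**Figure D2:**
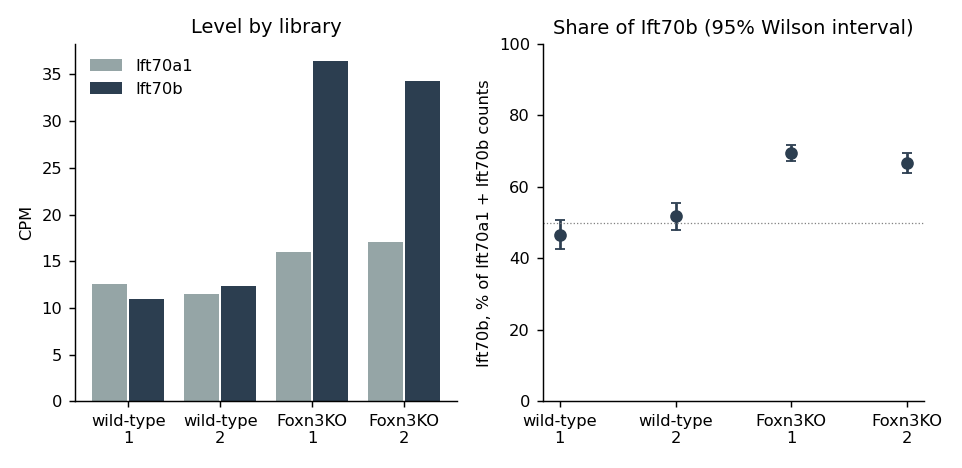
Left, bars of the CPM of Ift70a1 and Ift70b in each library, from 0. Right, Ift70b as a percentage of the counts of both copies, with 95% Wilson intervals and a dotted line at equal counts; the Foxn3KO libraries, at 69.5% and 66.8%, lie above the wild-type libraries, at 46.6% and 51.8%.

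Levels were compared between genes on the deposited FPKM scale, which divides by gene length. The implied lengths, such as 6435 bases for Ift46 and 2664 for Ift74, lie near all annotated exons joined (6416 and 2656 in GENCODE M21). The length of the transcript expressed in retina was not measured, so the order between genes depends on these lengths. In wild-type mean CPM, Ift46 (52.8) lay well above Ift25 (17.5), and Ift81 (65.0) above Ift52 (45.7). In wild-type, Ift74 was the most abundant member, at 36.5 ± 0.830 FPKM (SD, n = 2, here and below). Ift52 followed at 16.3 ± 0.307 and Ift81 at 11.1 ± 1.09 FPKM. Ift88 came next, at 8.996 ± 0.104 FPKM, with both libraries narrowly above both of Ift25. Ift25 (8.43 ± 0.520) and Ift46 (8.20 ± 0.863 FPKM) overlapped. Ift70b (4.23 ± 0.366) and Ift56 (4.13 ± 0.261 FPKM) were likewise within their spread of each other, and Ift70a1 was lowest, at 3.22 ± 0.196 FPKM.

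In the libraries labelled Foxn3KO the order was different below Ift74, which stood at 62.1 ± 1.42 FPKM. Ift81 (19.3 ± 0.0425 FPKM) was above Ift52 (17.7 ± 0.509 FPKM), and Ift88 followed at 16.0 ± 0.287 FPKM. Ift70b reached 12.9 ± 0.563 and Ift56 9.67 ± 0.303 FPKM, both above Ift46 (8.87 ± 0.105) and Ift25 (6.90 ± 0.722 FPKM), which they had been below in wild-type. Ift70a1 remained lowest, at 4.43 ± 0.200 FPKM.

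The proportions within the core therefore differed between the groups. As a share of the summed FPKM of the 9 members, Ift25 had a mean of 8.34% in wild-type and 4.37% in Foxn3KO, Ift52 16.1% and 11.2%, and Ift46 8.11% and 5.62%. Ift70b went the other way, from 4.19% to 8.16%, and Ift56 from 4.09% to 6.13%. Mean shares were 36.1% and 39.3% for Ift74, 10.97% and 12.2% for Ift81, 8.90% and 10.2% for Ift88, and 3.18% and 2.81% for Ift70a1. These shares are descriptions without a test, and the protein complex was not measured. Their sizes depend on the lengths used for FPKM.

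**Figure D3:**
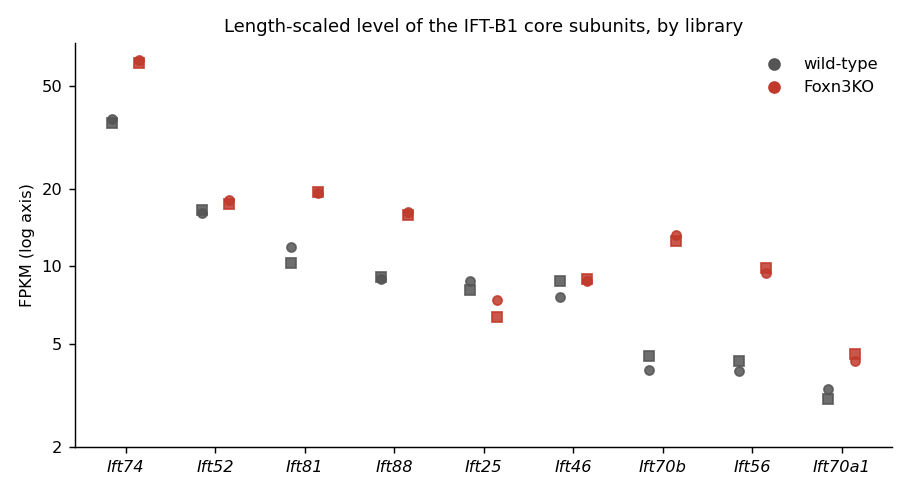
Deposited FPKM of the 9 members in each library on a log axis, ordered by the wild-type mean. Grey points are wild-type and red points Foxn3KO, with circles for replicate 1 and squares for replicate 2; Ift74 is highest in both groups, while Ift70b moves from about 4.23 to 12.9 FPKM.

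The fold changes of the members differed in size. Of the 36 pairs of members, 31 had 95% intervals of the log2 fold change that did not overlap. Some of these missed overlap narrowly. The interval of Ift70a1 ran from 0.2512 to 0.6684, while those of Ift46 and Ift52 ended at 0.2507 and 0.2468. That of Ift81 began at 0.6712. Pairs with Ift25 rest on a change at the edge of the threshold. The share of such pairs among other genes was not computed. The 5 pairs that overlapped were Ift74 with Ift81, Ift74 with Ift88, Ift81 with Ift88, Ift74 with Ift70a1, and Ift46 with Ift52. Ranked by log2 fold change from the top among 17300 genes, Ift70b was at 303 and Ift56 at 450, and Ift88, Ift81 and Ift74 were at 785, 835 and 878. Ift70a1 was at 1646, Ift52 at 4866, Ift46 at 5118 and Ift25 at 15169.

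The other genes of the transport machinery were compared as a list of 26, of which 25 were measured and tested. In the libraries labelled Foxn3KO 22 of them were called higher by edgeR and 3 did not pass. Of all tested genes, 12.3% were called higher. The log2 fold changes of the 25 transport genes had a median of 0.74 and a lowest value of 0.02. Without wild-type replicate 1, the median was 0.66 and the lowest value, that of Kif3c, was -0.05. Both other B1 subunits were called higher: Ift22, a small GTPase that binds Ift74 and Ift81, with 1.00, and Ift27 with 0.71. Of 6 B2 subunits 5 were called, from Ift57 (1.03) down to Ift20 (0.07), which also serves the Golgi and did not pass (edgeR adjusted p = 0.471). Of 7 complex A genes 6 were called, with Ift122 highest (1.16) and Ttc21b lowest (0.02, edgeR adjusted p = 0.889). Of 5 kinesin-2 genes 4 were called, from Kif17 (2.10, from 1.01 and 1.84 CPM in wild-type) to Kif3c (0.02, edgeR adjusted p = 0.815). All 5 dynein-2 genes were called, from Dync2i1 (1.37) to Dync2i2 (0.62). The members' range, from -0.29 to 1.60, was not tested against that of these groups.

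**Figure D4:**
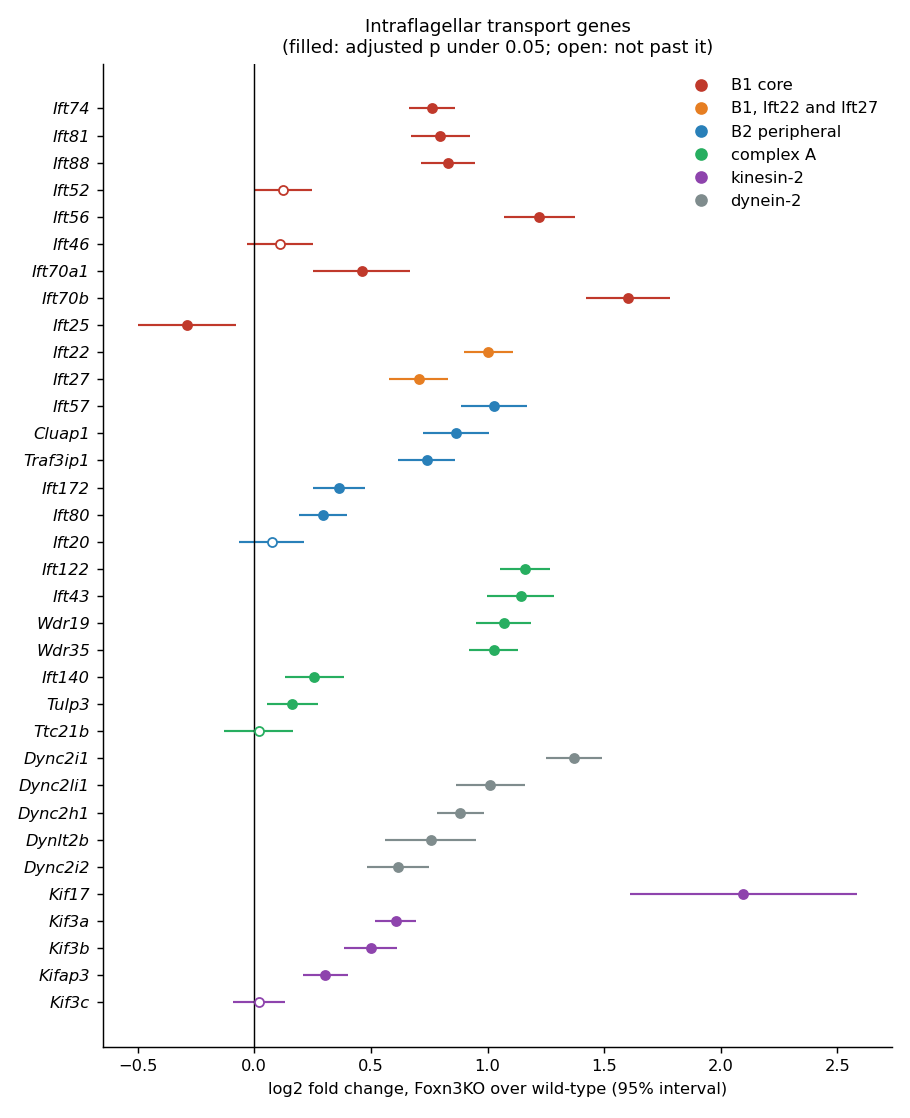
Log2 fold change, Foxn3KO over wild-type, with 95% intervals for the 9 members (red) and 25 other intraflagellar transport genes, coloured by complex. Filled points have an edgeR adjusted p under 0.05 and open points do not; Ift25 is the point below 0, and Ift46, Ift52, Ift20, Ttc21b and Kif3c are open.

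The mean profile of the members over the 4 libraries was matched against 10836 other genes averaging 10 CPM or more, by the Euclidean distance of centred log2 CPM. The 5 nearest were Kif3a (distance 0.0261), Gabrg3 (0.0298), Atf5 (0.0321), Prepl (0.0424) and Unc119b (0.0462). Kif3a, a motor subunit of kinesin-2, measured 171 and 171 CPM in wild-type and 259 and 260 CPM in Foxn3KO. The members themselves lay farther from their mean profile, from 0.150 for Ift74 to 0.956 for Ift70b, since their fold changes differ. With 4 libraries in 2 groups, this likeness mostly reflects a similar fold change and tight replicates.

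The authors' deposited table has the 6 members that rose as higher with an adjusted p under 0.05, where 16% of genes with an adjusted p were called. In the authors' deposited table, the log2 fold changes were 1.59 for Ift70b, 1.21 for Ift56, 0.82 for Ift88, 0.79 for Ift81, 0.76 for Ift74 and 0.40 for Ift70a1. Adjusted p-values in the authors' deposited table were 0.490 for Ift46 and 0.393 for Ift52.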

How the data were processed

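RNA sequencing of 4 retinal samples was read from 1 table. The authors deposited whole-number counts per gene and library, FPKM values, a mean signal per gene, log2 fold changes and p-values; per the submitters' processing notes, build mm39 and DESeq2 were used, with no role given. Aligner, counter, annotation, strand setting and use of the molecular identifiers are not given in the sources used here. No column was left unmapped. Groups and replicates came from the labels, with 2 embryos a group. The edgeR p-values, standard errors and fold-change intervals combine each gene's spread between these embryos with the spread of other genes. They therefore do not rest on the 2 embryos a group alone.

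From the counts, a repeated gene identifier was dropped, low genes were removed with filterByExpr, and TMM-scaled counts entered the two-sided quasi-likelihood test of edgeR 4.0.16 (R 4.3.3, with its earlier fit switched off and genotype as sole term), adjusted over all 17300 genes. Standard errors were derived from the fold change and F. On simulated data for this comparison with 17300 genes, 94% of 67 genes changed 1.5-fold and 100% of 67 changed 2-fold were called, and 12 of 17100 unchanged genes. The simulated spread followed only its trend with expression level, and only genes above a minimum level were changed. The simulation held no sex or lens difference between replicates, so these rates need not hold for the deposited counts. Alternatives used limma 3.58.1 and DESeq2 1.42.0. Centred profiles used a pseudocount of 0.5 CPM. Promoters came from RefSeq (GRCm38.p6) and transcripts from GENCODE M21, aligned with Biopython 1.88; member coordinates on mm39 were not used. Motifs were chosen with the promoter sequences in view.

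Named genes were all 9 members, Foxn3, Xist and Ddx3y, the highest and lowest fold change in each other transport group, and the 5 nearest profiles; marker genes are named beside their lists. The members and lists were chosen with earlier results of these data known. The shared replicate numbers do not mark a shared litter or day in the labels. Figures used matplotlib 3.10.9.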

Additional observations from a re-analysis of the deposited data

How the results depend on the processing

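Ift56, Ift70a1, Ift70b, Ift74, Ift81 and Ift88 were called higher under all 8 alternative fits (RLE size factors, total count scaling, no filter, at least 10 counts in every library, DESeq2, limma-voom, the earlier edgeR fit, the replicate block); Ift46 and Ift52 passed under none of these. Members called numbered 6 under DESeq2 and limma-voom and 7 otherwise, also at an adjusted p under 0.1, where 28.5% of all genes were called. DESeq2 called 2437 of all genes against 3795; the cause was not tested. Total count scaling moved the share of higher calls from 55.9% to 48.2%. The correlation of replicate differences between the groups was 0.0053 over 17300 genes. This value cannot tell whether the samples were paired, since the wild-type replicates also differed in Xist and lens markers. With the replicate block 7 members and 4222 genes were called. Leaving out each library in turn gave medians of 0.700 to 0.791, 6 to 8 members called, 2323 to 5068 genes called, Ift70b minus Ift70a1 of 1.00 to 1.30 and Foxn3 of 0.527 to 0.557. The fold changes were planned; the tests behind the counts of calls were added after seeing the data. They take a lone sample to vary like the other group and gave every gene the pooled spread, so their p-values are not printed. The Ift70 split rests on 271 to 466 counts in the smaller copy.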
